A study of Mus musculus with 98 samples.

Results

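RNA bound to the m6A reader Ythdf2 was recovered by RNA immunoprecipitation (RIP) from mouse TBLC, cultured totipotent blastomere-like cells that resemble blastomeres of cleavage-stage embryos. The cells had spent 3 days in SLM medium and are called diffTBLC. The experiment holds 4 of the 98 samples of the series: 2 IP libraries, made with an anti-YTHDF2 antibody (Abcam, ab246514), and 2 input libraries, labelled Ctrl. All 4 carry the same culture label, no siRNA or drug is named for them, and no sort is named. All genes of the table were taken as they stand, 21812 in number, of which 12364 passed the filter on low counts and were tested. The other samples used here are IP (anti-IGF2BP3 antibody from CST) and input of an Igf2bp3 RIP. Also used are unsorted diffTBLC after 0, 1, 2 and 3 h of actinomycin D. CD140+ (PrE-T) and CD140- (EPI-T) cells sorted from the same kind of culture were compared, and so were diffTBLC given siVirma or siNC. Undifferentiated TBLC entered the fit of the sorted cells, and diffTBLC given siMettl3 entered the fit of siVirma against siNC. Each group has n = 2.

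N6-methyladenosine (m6A) is laid on mRNA in the nucleus by a writer complex built around Mettl3 and Mettl14, with Wtap, Virma, Zc3h13, Cbll1 and the Rbm15 proteins as further subunits. In the cytoplasm the YTH-domain proteins Ythdf1, Ythdf2 and Ythdf3 bind the mark, and Ythdf2 is known for recruiting the CCR4-NOT deadenylase, which shortens poly(A) tails and starts mRNA decay. Igf2bp3 is another reader, known mainly for keeping its target mRNAs stable. In an IP over input comparison, a positive log2 value means that a transcript takes a larger share of the precipitate than of the input. It measures relative recovery and not the fraction of molecules bound.

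IP libraries held 10905348 and 12666298 counts and input libraries 2483808 and 2936270, so the inputs were the shallower and set the precision for rare transcripts. The labels name 2 library kits without saying which library was made with which, and no mock or IgG precipitate was analysed here. The labels do not say whether replicates came from separate cultures, so the p-values speak for the scatter among these 4 libraries alone, and that scatter may be technical. The culture label was checked against lineage markers. The summed level of 10 primitive endoderm (PrE) markers was 757 and 747 CPM (counts scaled to a fixed total, here the library total) in IP and 691 and 694 CPM in input. The same sum was 5724 and 5614 CPM in the Igf2bp3 RIP input, 3325 and 3307 CPM in diffTBLC at 0 h of actinomycin D, 13081 and 12951 CPM in PrE-T cells and 184 and 183 CPM in EPI-T cells. The summed level of 8 epiblast (EPI) markers was 3540 and 3539 CPM in IP and 4307 and 4163 CPM in the Ythdf2 input. That sum was 3223 and 3224 CPM in the Igf2bp3 input and 4846 and 4791 CPM in diffTBLC at 0 h of actinomycin D. Gata6 was at 6.44 and 4.77 CPM and Sox17 at 2.01 and 0.681 CPM in the Ythdf2 input, and Foxa2 had no count there. The PrE sum was 5363 and 5493 CPM in diffTBLC given siNC, and 1594 and 1543 CPM in undifferentiated TBLC. The Ythdf2 RIP was thus made on material low in PrE transcripts compared with the other diffTBLC libraries checked. Its input was also below undifferentiated TBLC in this sum. Fewer PrE cells and less RNA per cell cannot be told apart in these bulk samples. Fibroblast or feeder markers summed to 20.6 and 19.7 CPM in IP and 45.9 and 42.9 CPM in input, and trophectoderm markers to 113 and 102 CPM in IP and 126 and 116 CPM in input. Of their defining genes Cdx2 had no count in either input, Elf5 and Dcn had none in input replicate 1, and Lum had none in both.

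To find which transcripts were over- or under-represented in the precipitate, IP was compared with input. Transcripts of signalling genes, inducible transcription factors, zinc finger proteins and chromatin regulators were mostly higher in IP, while transcripts of ribosomal proteins, respiratory chain subunits, replication-dependent histones and the mitochondrial genome were nearly all lower. Differences were wide and replicates close: 4969 genes (40.2% of those tested) were higher and 4795 (38.8%) lower at an adjusted p under 0.05. At 2-fold or more, 3073 (24.9%) were higher, called enriched below, and 2682 (21.7%) were lower, called depleted. The median over all genes tested was 0.02 on the log2 scale, with a 5th percentile of -2.04 and a 95th percentile of 2.16. Since 79.0% of all genes passed the test, passing it says little about a single gene, and the size of each difference is given throughout. All 7 tested genes without a count in either input library were enriched, and so were 115 of the 119 with 1 to 3 input counts in all. Such genes passed the filter through their IP counts alone. Their being higher in IP was thus nearly fixed in advance.

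**Figure D1:**
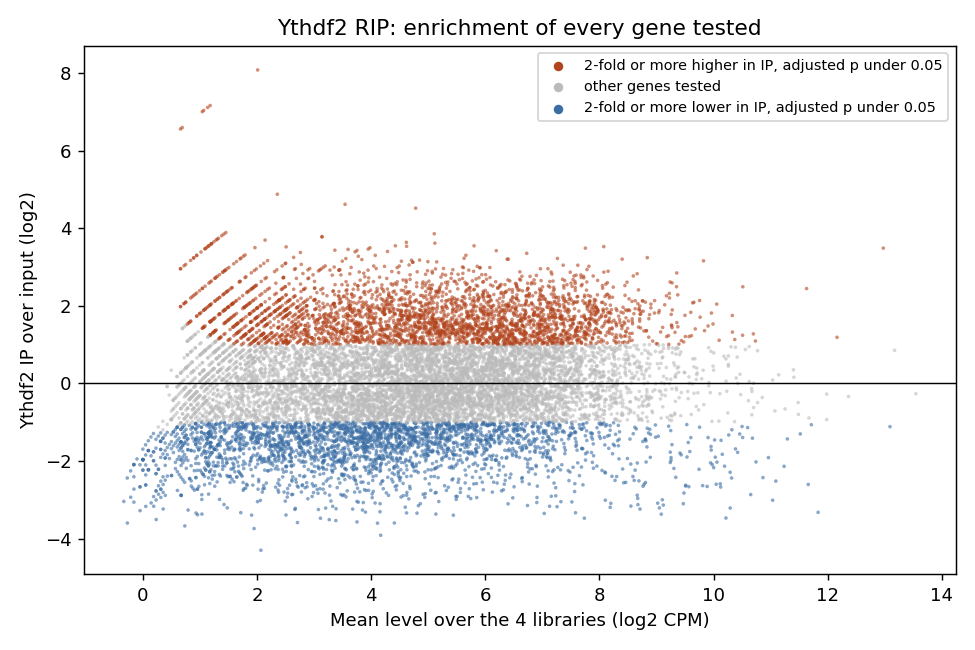
Log2 of Ythdf2 IP over input (vertical axis) against the mean level over the 4 libraries in log2 CPM (horizontal axis), 1 point per gene tested. The 3073 enriched and 2682 depleted genes are coloured, and both occur over the whole range of levels. The few points above 5 on the vertical axis are genes without input counts, whose fitted values are not bounds.

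The transcripts of the cytoplasmic readers themselves were recovered with Ythdf2. Ythdf2 measured 333 and 341 CPM in IP and 81.1 and 96.3 CPM in input, a log2 difference of 1.92 ± 0.073 (standard error of the fit, as below; edgeR adjusted p = 5.27e-36). Ythdf1 measured 408 and 402 CPM in IP and 81.1 and 88.0 CPM in input (2.26 ± 0.071), and Ythdf3 297 and 309 CPM in IP and 64.9 and 85.3 CPM in input (2.00 ± 0.078). For all 3 genes both IP libraries lay above both input libraries. The fold was close to 4 for Ythdf2 and Ythdf3 and larger for Ythdf1. The nuclear reader Ythdc1 rose by less (0.45 ± 0.071) and the helicase reader Ythdc2 did not pass (-0.55 ± 0.26, adjusted p = 0.0517), though it did in 3 of 12 alternatives. The Igf2bp readers fell: Igf2bp3 measured 60.01 and 61.1 CPM in IP and 77.5 and 85.3 CPM in input (-0.43 ± 0.092), Igf2bp2 had a difference of -1.04 ± 0.076 and Igf2bp1 one of -0.16 ± 0.050. The call of Igf2bp1 was lost with no filter, with a filter of at least 50 counts in both group means (0.00775) and without input replicate 2. Other RNA-binding proteins linked to m6A were also lower in IP, among them Hnrnpa2b1 (-1.62 ± 0.046), Hnrnpc (-0.96 ± 0.048) and Fmr1 (-0.89 ± 0.073). Both demethylases, Fto (0.69 ± 0.070) and Alkbh5 (0.51 ± 0.051), were higher. In all, 6 of the 13 reader and eraser genes rose and 6 fell, where 40.2% of all genes rose and 38.8% fell. Their median was -0.16, against 0.02 over all genes.

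Among the writer genes the accessory subunits rose, while Mettl3 and Mettl14 did not. Rbm15b, an adaptor of the complex, measured 196 and 178 CPM in IP and 24.3 and 23.7 CPM in input (2.96 ± 0.11). Its paralog Rbm15 (2.09 ± 0.060), the scaffold gene Virma (2.05 ± 0.081; 244 and 250 CPM in IP, 55.6 and 63.6 CPM in input) and Wtap (1.54 ± 0.085) were also enriched. Cbll1 (0.79 ± 0.16), Zc3h13 (0.45 ± 0.062) and Mettl16, a separate m6A methyltransferase (0.18 ± 0.081), were higher by less than 2-fold. The methyltransferase gene Mettl3 fell, with 9.73 and 9.45 CPM in IP and 21.5 and 17.5 CPM in input (-1.01 ± 0.19, adjusted p = 1.91e-06), and its partner Mettl14 fell slightly (-0.22 ± 0.094, adjusted p = 0.0284). The calls of Mettl14 (adjusted p up to 0.618) and Mettl16 (up to 0.712) were each lost in 7 of 13 alternatives. In total 7 of 9 writer genes rose and 2 fell, where 40.2% of all genes rose and 38.8% fell. Their median was 0.79, and with DESeq2 6 rose and 1 fell.

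Of 33 genes of the decay machinery that Ythdf2 feeds, 13 were higher and 12 lower, close to the shares over all genes (40.2% and 38.8%), and their median was -0.04. The strongest was Ddx6, a helicase of processing bodies, with 912 and 988 CPM in IP and 161 and 154 CPM in input (2.59 ± 0.060). Dcp1a, a decapping cofactor (2.12 ± 0.077), Tob1, an adaptor of the deadenylases (2.11 ± 0.089), and Pan3, a subunit of the PAN2-PAN3 deadenylase (2.09 ± 0.072), followed. Cnot1, the scaffold of CCR4-NOT, was nearly level, with 897 and 938 CPM in IP and 821 and 867 CPM in input (0.12 ± 0.046, adjusted p = 0.016). This call for Cnot1 was lost with DESeq2, with upper quartile scaling, which gave -0.0261, and without input replicate 1.

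**Figure D2:**
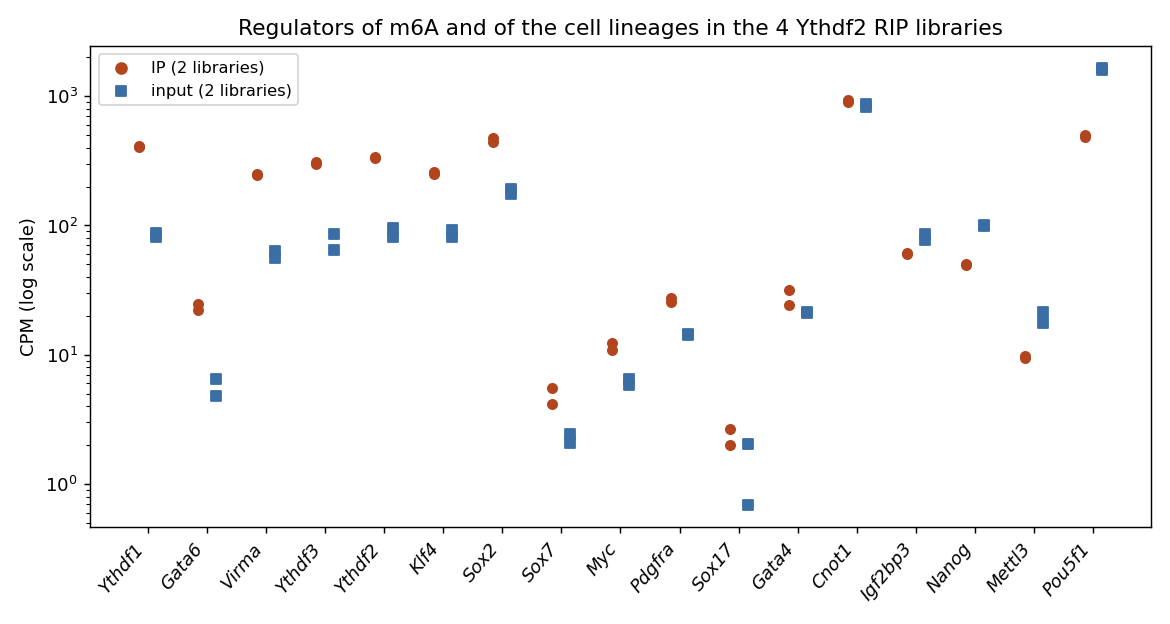
CPM on a log scale (vertical axis) of 17 regulators in the 2 IP libraries (circles, left) and the 2 input libraries (squares, right), ordered by log2 of IP over input. IP and input do not overlap except for Sox17, where 1 input library lay between the IP values, and the largest gap upward is that of Ythdf1 and downward that of Pou5f1.

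Pluripotency regulators were split between the fractions. Fgf4, the ligand by which epiblast cells signal to the primitive endoderm lineage, measured 1048 and 1007 CPM in IP and 139 and 146 CPM in input (2.85 ± 0.059, adjusted p = 8.06e-52). Sox2 measured 445 and 474 CPM in IP and 175 and 191 CPM in input (1.32 ± 0.061), and Klf4 259 and 251 CPM in IP and 92.5 and 81.2 CPM in input (1.56 ± 0.075). Tbx3, a T-box factor of naive cells, was higher as well (1.93 ± 0.073). Pou5f1, which encodes Oct4, measured 501 and 486 CPM in IP and 1656 and 1588 CPM in input (-1.72 ± 0.045). Nanog measured 49.5 and 50.5 CPM in IP and 99.0 and 101 CPM in input (-0.998 ± 0.090), and Dppa5a, which encodes a small RNA-binding protein of naive cells, 135 and 130 CPM in IP and 1198 and 1123 CPM in input (-3.13 ± 0.052). For each of these 7 genes the IP and input libraries were clear of each other. Of 21 naive genes 11 rose and 7 fell, with a median of 0.36, where 40.2% of all genes rose and 38.8% fell. Of 12 formative genes tested 8 rose and 3 fell, with a median of 0.67, with the DNA methyltransferase cofactor Dnmt3l (-1.49 ± 0.065) among the falls.

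Within the PrE network the early regulator Gata6 was enriched, with 24.9 and 22.2 CPM in IP and 6.49 and 4.82 CPM in input (2.07 ± 0.23, adjusted p = 7.86e-13). The receptor gene Pdgfra, which encodes the CD140a surface marker, rose by 0.88 ± 0.17, with 27.4 and 25.6 CPM in IP and 14.6 and 14.1 CPM in input. Gata4 measured 31.6 and 24.1 CPM in IP and 21.1 and 21.3 CPM in input (0.38 ± 0.16, adjusted p = 0.0263), a call that was lost in 6 of 13 alternatives, where the adjusted p went up to 0.278. Sox7, at 4.18 and 5.51 CPM in IP and 2.43 and 2.06 CPM in input (1.12 ± 0.40, adjusted p = 0.00899), lost its call with DESeq2 and without IP replicate 2 or input replicate 2, with an adjusted p up to 0.119. Sox17, at 2.00 and 2.68 CPM in IP and 2.03 and 0.688 CPM in input, overlapped between the groups and did not pass (0.85 ± 0.53, adjusted p = 0.139). Foxa2 had 26 and 30 counts in IP and none in input, so that its share of the IP was at least 4.29-fold higher, with a floor of 3 counts over both inputs. Among the members that fell were Sparc (-2.03 ± 0.058), a matrix glycoprotein, Tfpi (-1.16 ± 0.10), a coagulation inhibitor, and the collagen prolyl hydroxylase subunit P4ha1 (-0.75 ± 0.060). The matrix gene Nid2 rose (0.40), and the collagen lysyl hydroxylase Plod2 had a difference of -0.08 (adjusted p = 0.253); both were named after their values were seen. Over the whole PrE list 8 of 22 members tested rose and 8 fell, close to the shares over all genes (40.2% and 38.8%). The median was 0.31, which is the same with Foxa2 at its bound. The list's median was -0.11 with counts thinned to the smallest library total, where 15 members were tested. Basement membrane genes gave 5 higher and 5 lower of 14, also close to these shares, with a median of 0.03. Lamc1, a laminin chain, measured 1745 and 1774 CPM in IP and 828 and 779 CPM in input (1.13 ± 0.045). Low input counts limit the PrE genes, since the inputs were the shallower libraries and low in PrE transcripts.

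Signalling genes were mostly higher in IP. Of 36 tested genes of the BMP, Nodal and Wnt pathways 25 rose and 4 fell, with a median of 0.95. The shares over all genes were 40.2% and 38.8%. The Wnt receptor Fzd7 measured 340 and 332 CPM in IP and 76.2 and 75.7 CPM in input (2.15 ± 0.074), and Fzd5 was close to it (2.13 ± 0.078). The negative regulators Smad7, an inhibitory Smad (2.30 ± 0.093), and Axin1, a scaffold of the beta-catenin destruction complex (1.85 ± 0.073), rose as well. Ligands and receptors named after their values were seen include Bmp4, at 104 and 95.6 CPM in IP and 17.4 and 27.9 CPM in input (2.11 ± 0.12), Nodal (1.95 ± 0.17) and the type I receptor Acvr1 (2.80 ± 0.15). In the FGF and ERK list 17 of 27 rose (40.2% over all genes) and 6 fell (38.8%), with a median of 0.58. Its feedback inhibitors Spry4, at 108 and 110 CPM in IP and 17.8 and 16.5 CPM in input (2.67 ± 0.12), and Spry2 (2.40 ± 0.084) were enriched, and so was the receptor adaptor Frs2 (1.77 ± 0.088). The kinase gene Mapk3 (-1.70), named after its value was seen, was depleted.

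Inducible transcripts were among the best recovered. Of 18 immediate early genes tested 14 rose (40.2% over all genes) and 1 fell (38.8%), with a median of 1.38. Junb measured 196 and 182 CPM in IP and 28.4 and 32.3 CPM in input (2.63 ± 0.10), and Jund 704 and 610 CPM in IP and 199.5 and 185 CPM in input (1.77 ± 0.062). The phosphatase gene Dusp1 (2.25 ± 0.14) and Mycn (2.24 ± 0.13) were similar, and Myc rose less, with 10.9 and 12.3 CPM in IP and 6.49 and 5.85 CPM in input (0.92 ± 0.25). Of 20 p53 targets 9 were higher and 8 lower, near the shares over all genes (40.2% and 38.8%), with a median of 0.06. The p53 ubiquitin ligase gene Mdm2 measured 834 and 878 CPM in IP and 339 and 347 CPM in input (1.32 ± 0.052).

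Zinc finger genes formed the largest list, and most of them were recovered. Of 314 tested Zfp genes 207 (165 at 2-fold or more) rose and 32 fell, with a median of 1.08. Among all genes tested 40.2% rose (24.9% at 2-fold or more) and 38.8% fell. Zfp652 (2.04 ± 0.059), Zfp740 (2.18 ± 0.067), Zfp462 (2.00 ± 0.061) and Zfp664 (1.93 ± 0.066) had the lowest adjusted p. Zfp652 measured 688 and 687 CPM in IP and 166 and 167 CPM in input. In the related Zscan and Zkscan genes 17 of 20 rose and none fell at an adjusted p under 0.05, with a median of 1.41. Of the 21 listed genes of the 2-cell stage 8 were tested and all 8 rose (40.2% over all genes), with a median of 1.41. DESeq2 called 5 of these 8. The 8 are Zscan4b, Zscan4c, Zscan4d, Zscan4e, Zscan4f, Usp17lc, Usp17le and the translation initiation factor gene Eif1a. They are thus mostly copies within gene families and not 8 separate observations. Zscan4d, for example, measured 24.0 and 24.7 CPM in IP and 6.08 and 4.47 CPM in input (2.22 ± 0.23). The Zscan4 copies are near-identical, and how reads shared between copies were assigned is not stated. Of 51 chromatin regulators 39 rose and 8 fell, beside the same shares over all genes, with a median of 0.75. The remodeller subunit Arid1a measured 635 and 608 CPM in IP and 144 and 141 CPM in input (2.13 ± 0.061), and the histone methyltransferases Kmt2d (1.89 ± 0.059) and Nsd1 (1.82 ± 0.057) rose too.

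Ribosomal protein transcripts made up 2.42% and 2.41% of the counts in IP, against 9.94% and 9.88% in input. Of the 81 genes tested 80 fell, 75 of them by 2-fold or more, and the median was -2.51. Among all genes 38.8% fell, 21.7% by 2-fold or more, and 40.2% rose. Rplp1, a protein of the ribosomal stalk, measured 217 and 212 CPM in IP and 2375 and 2370 CPM in input (-3.47 ± 0.047), and Rps12 115 and 110 CPM in IP and 1140 and 1176 CPM in input (-3.37 ± 0.053). The single member that rose was Rpl10l (0.39), a testis paralog of Rpl10 named after its value was seen, whose call was lost with upper quartile scaling and without input replicate 2; reads of such paralogs may be shared. Translation factors were lower too, with 22 of 29 down, 6 up and a median of -1.04; the elongation factor Eef1b2 measured 471 and 470 CPM in IP and 1796 and 1721 CPM in input (-1.90 ± 0.045).

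Transcripts of the respiratory chain were depleted whether they came from the nucleus or from the mitochondrial genome. Of 80 nuclear genes 77 fell and 2 rose, with a median of -2.27. All 9 mitochondrial mRNAs tested fell, with a median of -2.59, where 38.8% of all genes fell and 40.2% rose. The mitochondrial mRNAs are made and translated inside the organelle, away from cytoplasmic Ythdf2, and whether this bears on their fall was not tested. Among them mt-Co1 measured 669 and 694 CPM in IP and 6829 and 6805 CPM in input (-3.32 ± 0.043), while mt-Nd6, the mRNA from the light strand, fell least (-1.02 ± 0.060). Atp5e, a subunit of ATP synthase, had the largest fall by the naming rule, with 4.73 and 4.25 CPM in IP and 71.4 and 64.3 CPM in input (-3.91 ± 0.15). Of 17 glycolytic genes 13 fell and 4 rose, with a median of -1.19. Gapdh measured 520 and 452 CPM in IP and 4029 and 3791 CPM in input (-3.01 ± 0.048), whereas the first enzyme of the pathway, hexokinase Hk2, measured 1871 and 1905 CPM in IP and 537 and 583 CPM in input (1.75 ± 0.047).

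Replication-dependent histone mRNAs, which end in a stem-loop and lack a poly(A) tail, fell in 54 of 57 cases. Their median was -2.07 with 1 rise, where 38.8% of all genes fell and 40.2% rose. H4c12, a histone H4 gene, measured 12.8 and 13.6 CPM in IP and 147 and 132 CPM in input (-3.39 ± 0.11). Histone copies are close paralogs, so the values of single copies are uncertain. Proteasome subunits (33 of 37 lower, 2 higher, median -1.14) and core spliceosome genes (20 of 27 lower, 6 higher, median -1.02) were lower as well. The same held for SR proteins and Clk kinases (13 of 16 lower, 2 higher, median -0.89) and for cell cycle genes (18 of 24 lower, 2 higher, median -0.47). Psmb6, a catalytic proteasome subunit, had a difference of -2.57 ± 0.083, and the Sm protein gene Snrpe one of -2.81 ± 0.10. The proliferation marker Mki67 ran the other way, with 821 and 861 CPM in IP and 297 and 303 CPM in input (1.49 ± 0.053). Under other scalings, DESeq2, no filter or thinned counts the medians of the decay, primitive endoderm, basement membrane, fibroblast, trophectoderm and p53 lists changed sign. Those of the other lists named kept theirs under these settings. List medians were not taken with the filter of at least 50 counts in both group means.

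**Figure D3:**
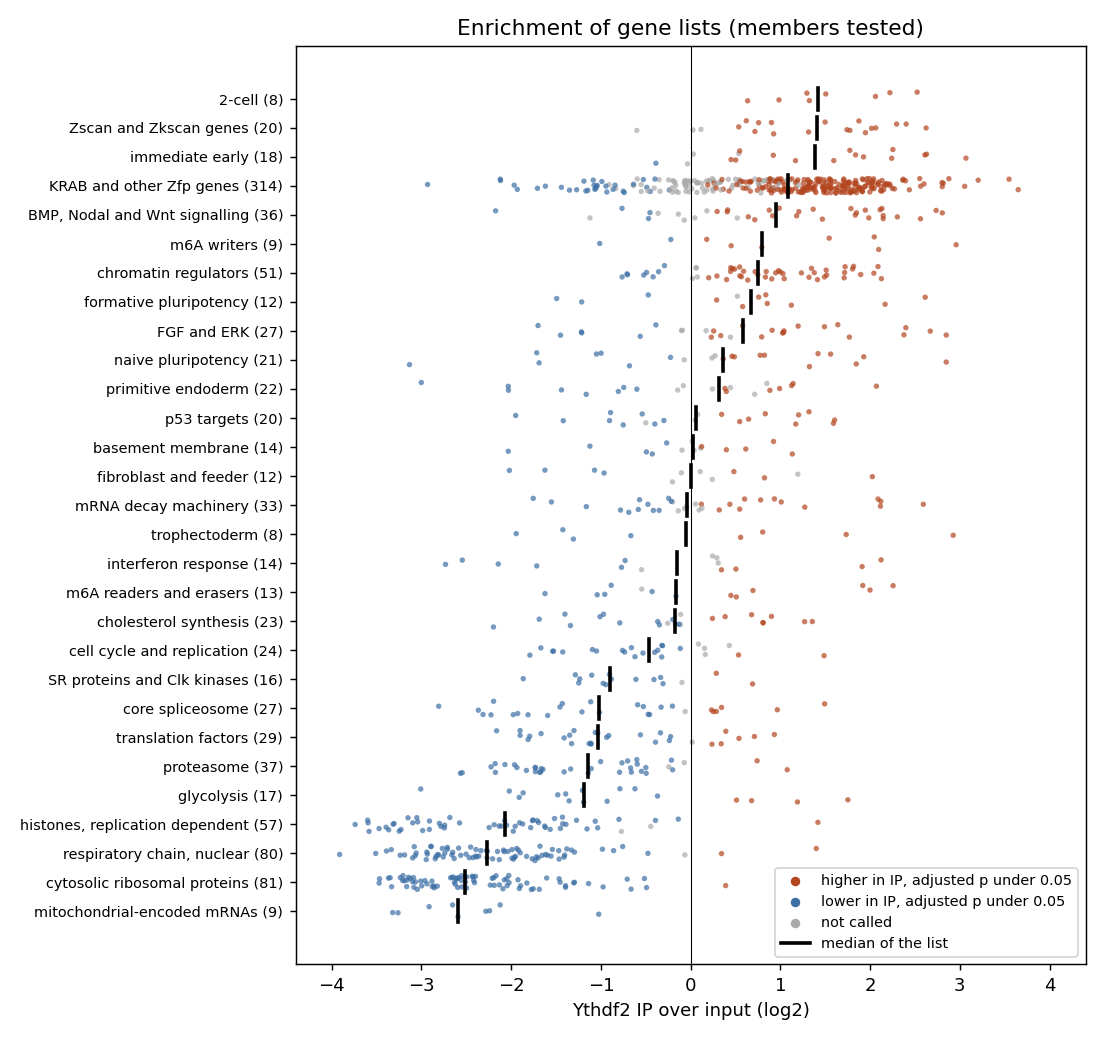
Log2 of Ythdf2 IP over input (horizontal axis) for each tested member (points) of 29 gene lists with at least 8 tested members, their numbers in brackets and the median of each list as a bar. Medians run from -2.59 for mitochondrial mRNAs to 1.41 for 2-cell and Zscan genes, against 0.02 over all genes tested. Foxa2 of the primitive endoderm list lies outside the axis, since it had no input count.

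Single genes stood out beyond these lists. Peg10, an imprinted gene derived from a retrotransposon and named after its value was seen, measured 14603 and 14513 CPM in IP and 1280 and 1316 CPM in input (3.49 ± 0.043), or 1.47% and 1.45% of all IP counts. Tmem121, a membrane protein gene, measured 35.6 and 33.4 CPM in IP and 1.22 and 1.72 CPM in input (4.52 ± 0.29). Klhl9, an adaptor of a cullin ubiquitin ligase, combined a large rise with high counts, at 383 and 419 CPM in IP and 33.3 and 36.1 CPM in input (3.53 ± 0.088). The hyaluronan synthase gene Has2 had 159 and 175 counts in IP and 0 and 3 in input, a ratio of library shares of 25.6 (95% exact counting interval 8.68 to 125). The Wnt ligand gene Wnt3a (3.50 ± 0.32), the FLRT family gene Flrt1 (3.53 ± 0.26) and the zinc finger genes Rbak (3.62 ± 0.22) and Zfp273 (3.55 ± 0.29) were among the 12 largest rises. Others of these 12 were Shisa2 (3.86 ± 0.23), Pramel12 (3.64 ± 0.26) and Ccnq (3.55 ± 0.17). The 12 largest falls held 5 histone genes beside H4c12 (H3c7, H4c6, H4f16, H3c10 and H4c8, between -3.60 and -3.37), the ribosomal protein genes Rplp1, Rps12, Rps21 and Rps27rt, and the respiratory chain genes Atp5e and Ndufb1.

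Unsorted diffTBLC were also followed after transcription had been blocked with actinomycin D, in libraries that the RIP did not use. At 0 h these libraries had a PrE marker sum of 3325 and 3307 CPM, against 691 and 694 CPM in the Ythdf2 input. What this difference contributes to the values below was not tested. Most transcripts enriched with Ythdf2 lost share over 3 h, and most depleted transcripts gained share. Slopes are in log2 units per hour relative to the centre of all transcripts, since no spike-in is described. In these libraries 30.3% of all 13553 genes tested had a negative and 27.3% a positive slope at an adjusted p under 0.05. Of the 2977 enriched genes tested in the course 1971 (66.2%) had a negative slope and 107 (3.59%) a positive one, with a median of -0.21. Of the 2637 depleted genes 131 (4.97%) had a negative slope and 1768 (67.0%) a positive one, with a median of 0.16, and the median over all genes was -0.01. With slopes scaled on library totals, which moved the median of all genes to -0.11, 11.4% of all genes had a positive and 48.3% a negative slope. There 84.3% of enriched genes were negative, and 39.9% of depleted genes were positive and 14.4% negative. Across 12128 genes the slope and the RIP value had a Pearson r of -0.60 and a Spearman rho of -0.65. This is a description across genes, which are not independent replicates, and transcript length was not analysed here. Median levels in the RIP were 5.08 log2 CPM in enriched, 3.90 in depleted and 4.74 in all genes. Within 3 equal bins of that level Pearson's r was -0.56, -0.64 and -0.65 from low to high.

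**Figure D4:**
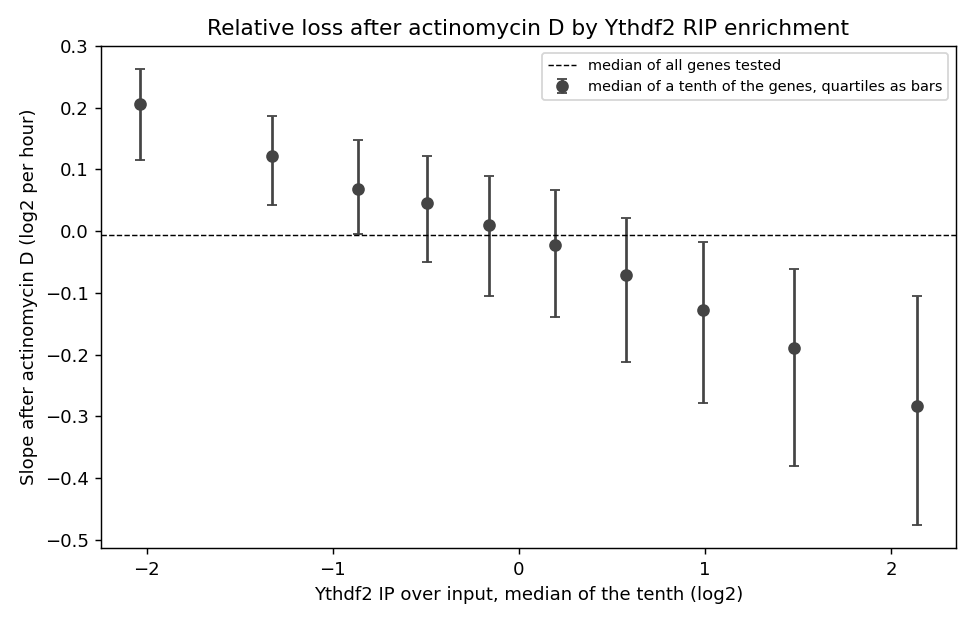
Slope after actinomycin D in log2 units per hour (vertical axis) for 10 equal bins of genes ordered by Ythdf2 IP over input (horizontal axis, median of the bin in log2), with interquartile ranges as bars. The median slope was 0.21 in the bin of lowest recovery, -0.02 in the sixth and -0.28 in the bin of highest recovery.

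Single regulators varied widely around these medians. Sox2 (RIP 1.32) had 226 and 233 CPM at 0 h, 102 and 109 at 1 h, 48.4 and 51.4 at 2 h and 27.6 and 28.0 CPM at 3 h, a slope of -1.03 ± 0.028 (adjusted p = 1.95e-09). Gata6 (RIP 2.07) had 96.5 and 102 CPM at 0 h, 77.8 and 78.3 at 1 h, 47.9 and 50.8 at 2 h and 35.4 and 35.3 CPM at 3 h (-0.51 ± 0.027). The levels of both genes went down at each hour in both replicates. Klf4 (-0.69 ± 0.025) and Ythdf2 itself (-0.43 ± 0.025) also had negative slopes, as did all 19 immediate early genes tested, with a median of -0.86. Pou5f1 (RIP -1.72) had 1582 and 1539 CPM at 0 h and 2690 and 2624 CPM at 3 h (0.27 ± 0.033), and Nanog (RIP -0.998), at 196 and 204 CPM at 0 h and 198 and 202 CPM at 3 h, did not pass (0.02 ± 0.027, adjusted p = 0.573). Mettl3 (RIP -1.01) had a negative slope (-0.12 ± 0.028), and Virma (RIP 2.05) one of only -0.08 ± 0.029. The median slope was 0.29 for ribosomal protein genes, of which 80 of 82 had a positive slope, and -0.42 for Zfp genes, of which 294 of 341 had a negative one. Other lists did not pair in this way. Mitochondrial mRNAs were depleted in the RIP and also negative in slope (median -0.29, 7 of 11 negative and 0 positive at an adjusted p under 0.05), and so were both snoRNA host genes tested. SR proteins and Clk kinases, lower in the RIP, had a median slope of 0.01 with 4 positive and 5 negative of 16. These counts are near the shares over all genes, 27.3% positive and 30.3% negative. Decay genes, with a RIP median of -0.04, had 19 negative and 2 positive slopes of 33.

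To see where the recovered transcripts stand between the sorted populations, PrE-T was compared with EPI-T. In this comparison 35.8% of 14373 genes were higher and 32.8% lower in PrE-T. Of 3023 enriched genes tested 996 (32.9%) were higher in PrE-T and 1151 (38.1%) lower, with a median of -0.10. Of 2655 depleted genes 1209 (45.5%) were higher and 682 (25.7%) lower, with a median of 0.20, and the median of all genes was 0.03. Across 12228 genes Pearson's r with the RIP value was -0.04. Enriched genes are found at both ends, with Gata6 (6.16 ± 0.1) higher in PrE-T and Fgf4 (-3.72 ± 0.098) lower in PrE-T.

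Virma was the target of 1 knockdown in diffTBLC. The PrE marker sum was 5363 and 5493 CPM with siNC, against 691 and 694 CPM in the Ythdf2 input. The part of this difference in the values below was not tested. Virma itself measured 87.1 and 81.0 CPM with siVirma and 122 and 115 CPM with siNC (-0.50 ± 0.085, adjusted p = 1.88e-06). Here 3.48% of 12141 genes were higher and 3.63% lower with siVirma. These 863 calls were 279 with DESeq2, 505 and 495 without siNC replicate 1 or 2, and 514 without siVirma replicate 1. Of 2802 enriched genes 133 (4.75%) were higher and 84 (3.00%) lower, with a median of 0.03, and of 2497 depleted genes 54 (2.16%) were higher and 109 (4.37%) lower, with a median of -0.03. These medians differ from that of all genes (0.00) by at most 0.03 on the log2 scale. Gata6, which is enriched in the RIP, was lower with siVirma (-1.11 ± 0.093), and so was Pdgfra (-0.98 ± 0.089). They belong to the PrE list, of which 18 of 24 members fell and 1 rose with siVirma (median -0.54).

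The RIP was then set against the Igf2bp3 RIP of cells with the same culture label, in 1 fit of 8 libraries with each table scaled on its own. The Ythdf2 precipitate differed from its input more widely than that of Igf2bp3, with 3145 genes (23.5% of 13378) higher and 2693 (20.1%) lower at 2-fold or more, against 1319 (9.86%) higher and 1404 (10.5%) lower for Igf2bp3. The genes higher in both numbered 431, which is 13.7% of the Ythdf2 list and 32.7% of the Igf2bp3 list, and 848 were lower in both (31.5% and 60.4%). In opposite directions were 131 genes higher with Ythdf2 and lower with Igf2bp3, and 81 the other way round. Over all genes the log2 values had a Pearson r of 0.36, and the difference between the RIPs passed the test for 8500 genes, with 4244 (31.7%) higher and 4256 (31.8%) lower for Ythdf2. The inputs of both RIPs differ in their PrE content, as given above, and the part of this in the differences was not tested.

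Transcripts of the 3 Ythdf readers and of many Zfp genes were recovered more with Ythdf2 than with Igf2bp3. For Ythdf1, Ythdf2 and Ythdf3 the difference was 1.63 ± 0.085, 1.92 ± 0.091 and 1.73 ± 0.097, and for Sox2 it was 1.69 ± 0.077, with a log2 value of -0.34 in the Igf2bp3 RIP. Fgf4 (3.47 ± 0.086), Gata6 (1.72 ± 0.24) and Junb (3.11 ± 0.12) also differed in this direction. Of 337 Zfp genes in the joint fit 183 were higher and 32 lower with Ythdf2, with a median difference of 0.87. For Gata4 (-0.21, adjusted p = 0.243), Sox7 (-0.03, adjusted p = 0.968), Pdgfra (0.15, adjusted p = 0.491), Nanog (0.16, adjusted p = 0.166) and Mettl3 (-0.33, adjusted p = 0.178) the difference did not pass, though that of Nanog passed with TMM over all 8 libraries and with library totals, and that of Gata4 without Ythdf2 IP replicate 1 (adjusted p = 0.0287). The sign for Sox7 changed under 5 alternatives, none of which passed. The ribosomal protein genes, depleted in both, were lower with Ythdf2 in 74 of 82 cases, with a median of -2.51 in the Ythdf2 and -1.45 in the Igf2bp3 RIP. Mitochondrial mRNAs separated the RIPs most among the lists with at least 8 members, with a median difference of -2.31 and 8 of 9 lower with Ythdf2. Of 51 chromatin regulators 39 were higher in the Ythdf2 and 42 in the Igf2bp3 RIP, where 33.4% of all genes were higher and 32.9% lower, yet 38 of them differed between the RIPs, 17 higher and 21 lower with Ythdf2, with a median difference of -0.08.

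Of the 12 genes with the largest differences, Klhl9 measured 386 and 420 CPM in Ythdf2 IP and 33.0 and 35.8 CPM in its input, against 24.7 and 25.2 CPM in Igf2bp3 IP and 46.6 and 51.0 CPM in its input (CPM on library totals; difference 4.31 ± 0.13). Fignl1, a gene of DNA repair, measured 276 and 284 CPM in Ythdf2 IP and 37.0 and 30.3 CPM in its input, against 17.1 and 16.1 CPM in Igf2bp3 IP and 41.1 and 42.8 CPM in its input (4.198 ± 0.15). Both were higher in IP with Ythdf2 and lower in IP with Igf2bp3. In the other direction, Laptm5, a lysosomal membrane protein gene, measured 28.4 and 26.8 CPM in Ythdf2 IP and 106 and 117 CPM in its input, against 290 and 289 CPM in Igf2bp3 IP and 75.3 and 74.7 CPM in its input (-4.17 ± 0.11). The matrix proteoglycan gene Bgn measured 2.84 and 1.58 CPM in Ythdf2 IP and 14.5 and 11.2 CPM in its input, against 421 and 409 CPM in Igf2bp3 IP and 83.7 and 93.4 CPM in its input (-4.98 ± 0.3). These genes were lower in IP with Ythdf2 and higher in IP with Igf2bp3.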

How the data were processed

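The files are raw counts per gene that the authors deposited, 1 table per experiment. The submitters' processing notes name genome build mm39 and the tools STAR 2.7.11b, Subread, Trim Galore, FastQC 0.12.1 and DESeq2, with no role or order; their settings, and whether counting used strand, are not given in the sources used here. From these counts, edgeR 4.0.16 in R 4.3.3 gave quasi-likelihood tests with Benjamini-Hochberg adjustment over all genes tested and a threshold of 0.05. Each table was filtered with filterByExpr and scaled by TMM on its own. The fit of the sorted cells included the TBLC libraries, and that of siVirma the siMettl3 libraries. CPM use TMM-scaled totals unless library totals are named, and the standard error is the size of the log2 value over the square root of F. The Ythdf2 against Igf2bp3 difference came from 1 fit of 8 libraries with a level for each table. Slopes were fitted over 0, 1, 2 and 3 h. DESeq2 1.42.0 was an alternative. The deposited tables also hold 8 per-sample columns that match no sample here and were not used.

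Genes named are 17 regulators, the 12 largest rises and 12 largest falls among genes whose groups do not overlap and whose mean log2 CPM is 3 or more, up to 4 members of each of 34 lists by lowest adjusted p (all members where a list is given in full), and the 6 largest and 6 smallest differences between the RIPs. The members and lists were chosen with earlier results of these data known. Folds against no input counts use a floor of 3 counts over both inputs, and such bounds and 95% intervals cover counting error only. Data were simulated for the Ythdf2 RIP over 12118 genes, with 100 genes changed by a log2 of 1 and 100 by 0.5. Of those changed by 1, 78% were recovered, and 94.7% where the mean log2 CPM was 3 or more. Of those changed by 0.5, 53% were recovered, and 7.09% of all calls were false. In the RIP itself 79.0% of genes were called, so these rates need not hold there. Alternatives were other scalings and filters, thinned counts, DESeq2, a replicate block and each library left out. No sequences are printed, since transcript sequences were not used here.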

Additional observations from a re-analysis of the deposited data

Results flagged for a closer look

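The 12 genes named for the largest difference between the RIPs were picked among genes that passed the edgeR test of that difference. So their passing is no further support. The test took Ythdf2 minus Igf2bp3 of log2 IP over input, in 4 Ythdf2 and 4 Igf2bp3 libraries. CPM in this section are on library totals. Higher with Ythdf2 were Tmem121 (5.10 ± 0.53), Ccnq (4.65 ± 0.31), Prss23 (4.31 ± 0.38), Klhl9 (4.31 ± 0.13) and Fignl1 (4.198 ± 0.15). Ccnq measured 74.3 and 70.7 CPM in Ythdf2 IP and 7.25 and 5.11 CPM in its input, against 4.11 and 2.95 CPM in Igf2bp3 IP and 7.70 and 9.74 CPM in its input. Foxa2 had a fitted difference of 7.02, which is no bound, from 26 and 30 counts in Ythdf2 IP and 0 and 0 in its input, against 309 and 257 in Igf2bp3 IP and 142 and 115 in its input.

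Lower with Ythdf2 were Bgn (-4.98 ± 0.30), Rcan2 (-4.21 ± 0.40), Syn1 (-4.21 ± 0.33), Laptm5 (-4.17 ± 0.11) and mt-Nd6 (-4.11 ± 0.075). Of these mt-Nd6 measured 177 and 205 CPM in Ythdf2 IP and 372 and 396 CPM in its input, against 715 and 678 CPM in Igf2bp3 IP and 102 and 84.6 CPM in its input. Oas3, an antiviral 2'-5' oligoadenylate synthetase, differed by -7.44 ± 0.56. It had 11 and 8 counts in Ythdf2 IP and 13 and 16 in its input, against 427 and 400 in Igf2bp3 IP and 9 and 7 in its input.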

How the results depend on the processing

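With a filter of at least 50 counts in both group means, which tests fewer genes, 5988 genes were called in the Ythdf2 RIP (2977 higher and 3011 lower, 1522 and 1358 at 2-fold). Higher genes were 45.6% of the calls with upper quartile scaling and 54.3% with no filter, against 50.9%; under these settings the median over all genes was -0.13 and 0.16. Leaving out 1 library gave 8716 to 9212 calls, 4477 to 4685 higher and 4239 to 4527 lower (2846 to 3002 and 2515 to 2581 at 2-fold). For Cnot1 upper quartile scaling gave -0.0261 (adjusted p = 0.613). Of 2053 values under alternatives, for the 162 genes of the naming rule apart from those named as full lists or after their values were seen, 2039 kept direction and side of the threshold and 13 lost the call, in Gata4, Sox7, Cnot1, Trf and Apob. Of the other genes named in the text Mettl14, Mettl16, Igf2bp1, Ythdc2, Plod2 and Rpl10l changed sides. The number of samples and the input depth limit the low genes. Leaving out 1 library gave 7624 to 8317 calls for the difference between RIPs (3930 to 4163 higher, 3694 to 4161 lower), 6916 to 7788 slopes (3497 to 3665 positive, 3387 to 4123 negative), 9013 to 9700 calls for PrE-T (4756 to 5088 higher, 4237 to 4614 lower) and 495 to 838 for siVirma (233 to 412 higher, 253 to 426 lower). DESeq2 gave 279 calls for siVirma (136 higher, 143 lower), and library totals gave 1550 positive and 6548 negative slopes; the cause was not tested. As class median minus that of all genes, the slope of enriched genes was -0.208 and moved to -0.220 with upper quartile scaling of the RIP, -0.195 with no RIP filter, -0.155 with the 50 count filter and -0.201 with no slope filter; for depleted genes (0.162) these were 0.151, 0.170, 0.191 and 0.169. For PrE-T, enriched genes moved to -0.110 with upper quartile scaling, -0.237 with 50 counts and -0.114 with no filter of that table, and depleted genes to 0.183 with DESeq2, 0.149 with upper quartile scaling, 0.179 with no RIP filter, 0.221 with 50 counts, 0.183 thinned, 0.181 in the joint fit and 0.192 with no filter of that table. For siVirma, enriched genes moved to 0.0252 with upper quartile scaling, 0.0434 with 50 counts, 0.0291 thinned and 0.0168 with no filter; the cause was not tested. Without 1 library these medians were -0.213 to -0.203 and 0.148 to 0.183 for the slope, -0.143 to -0.0899 and 0.165 to 0.196 for PrE-T and 0.0237 to 0.0299 and -0.0367 to -0.0189 for siVirma, enriched and depleted in turn. With the replicate number as a block, 9838 genes were called in the RIP, 8503 in the difference, 7537 slopes, 9760 for PrE-T and 884 for siVirma, so no count moved by over 1.5 times. Same-numbered libraries did not deviate together (correlation 0.0368 in the Ythdf2 RIP, -0.00393 to 0.0503 elsewhere). Whether same-numbered libraries came from the same material cannot be told from this.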

Other observations

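Further lists are given here, to be read beside the shares over all genes in the Ythdf2 RIP (40.2% higher, 38.8% lower). Cholesterol synthesis genes gave 8 higher and 12 lower of 23, with a median of -0.17. The sterol demethylation enzyme Msmo1 was among the rises (1.36). Interferon response genes gave 4 higher and 6 lower of 14, with a median of -0.15, from the adenosine deaminase Adar (1.91) to the membrane protein gene Ifitm2 (-2.55). Visceral endoderm genes were mostly too low to test, with 3 of 13 tested, 1 higher and 2 lower. Trophectoderm genes gave 4 higher and 4 lower of 8 (median -0.06), and fibroblast and feeder genes 3 higher and 4 lower of 12 (median 0.00). Both snoRNA host genes tested fell, with a median of -1.90. Of the 18 listed long noncoding RNAs 1 was tested, Tug1, and it rose (1.99).

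Among all genes of the RIP table, 38 had at least 20 counts over both IP libraries and none in either input. Amigo2, a cell adhesion gene, had 43 and 67 IP counts and was at least 8.43-fold higher in IP by its bound, and Skida1 had 25 and 33 IP counts and was at least 4.45-fold higher. The trophectoderm regulator Cdx2 had 16 and 18 IP counts and was at least 2.61-fold higher. These genes were named after their values were seen. All 38 were picked for having IP counts and no input count, so their being higher in IP was fixed by that choice. The bounds do not allow for this selection. Only 7 of the genes tested had no input count, so most of the 38 were not tested.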
